A study of Homo sapiens with 5 samples.

Results

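The cells described here were 2865 of the 9539 D22 cells kept (30.0%; exact 95% interval 29.1 to 31.0), and 2865 of 44007 barcodes over all tables of the series. A cell was a member if its NEUROD4 and NHLH1 molecules summed to at least 4, its MKI67 and TOP2A molecules to at most 1, and if it held 0 molecules of DLX1, DLX2 and DLX5. Molecules were counted as unique molecular identifiers (UMIs) on 10× Genomics droplets. The cells compared with them were the 3977 other D22 cells with at most 1 UMI of MKI67 and TOP2A, called other non-dividing cells below. All cells came from the wild-type human embryonic stem cell line WA09, differentiated toward GnRH neurons by dual SMAD inhibition (dorsomorphin and SB431542), then FGF8, then the Notch inhibitor DAPT, without XAV939. D22, D24 and D26 are days of this protocol and 1 library each. D0, D5 and D10 cells, the last 2 days with and without XAV939, came from 1 tagged run. There were no replicates, so no difference was tested, and the 95% intervals given cover counting error only and understate the error of a gene whose UMIs come mainly from a small number of cells.

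NEUROD4 and NHLH1 encode basic helix-loop-helix (bHLH) transcription factors that are switched on as a neural progenitor leaves the cell cycle and becomes a neuron. They act after proneural factors such as those of the NEUROG family, which start neurogenesis, and before most cytoskeletal and synaptic genes of neurons. Notch signalling holds progenitors back from this step through the HES repressors, and DAPT blocks it. HES6, unlike its relatives, is known to be high in cells that are becoming neurons. SSTR2 is a receptor for the neuropeptide somatostatin, and LHX9 is a LIM-homeodomain factor of forebrain neurons.

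bHLH factors bind the E-box, the letters CANNTG. Because the cells were chosen by 2 bHLH genes, the 250 bases before the RefSeq start of both are shown (GRCh38.p14, 5′ to 3′ on the gene's own strand), with those of ATOH7, a bHLH gene, and SSTR2, which were both higher in the members. Capitals mark every CANNTG.
NEUROD4 (chr12:55019724-55019973, plus strand): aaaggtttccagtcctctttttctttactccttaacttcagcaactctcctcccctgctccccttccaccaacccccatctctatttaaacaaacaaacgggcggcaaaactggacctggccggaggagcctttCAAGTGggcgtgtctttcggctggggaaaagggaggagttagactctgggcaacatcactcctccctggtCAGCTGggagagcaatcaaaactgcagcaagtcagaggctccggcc
NHLH1 (chr1:160366821-160367070, plus strand): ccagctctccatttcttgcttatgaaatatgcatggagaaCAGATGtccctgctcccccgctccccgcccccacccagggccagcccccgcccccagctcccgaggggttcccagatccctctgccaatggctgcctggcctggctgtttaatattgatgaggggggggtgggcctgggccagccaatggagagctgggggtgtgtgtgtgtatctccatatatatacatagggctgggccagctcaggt
ATOH7 (chr10:68232114-68232363, minus strand): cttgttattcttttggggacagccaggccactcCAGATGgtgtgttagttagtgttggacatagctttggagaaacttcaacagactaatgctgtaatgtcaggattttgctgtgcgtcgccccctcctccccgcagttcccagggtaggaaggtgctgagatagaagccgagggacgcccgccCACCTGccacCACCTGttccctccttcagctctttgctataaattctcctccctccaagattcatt
SSTR2 (chr17:73164760-73165009, plus strand): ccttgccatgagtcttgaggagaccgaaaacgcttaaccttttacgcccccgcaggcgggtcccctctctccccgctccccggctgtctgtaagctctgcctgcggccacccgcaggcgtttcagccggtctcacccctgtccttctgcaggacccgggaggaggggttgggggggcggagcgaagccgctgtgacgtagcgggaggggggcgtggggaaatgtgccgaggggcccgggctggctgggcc
The window of NEUROD4 held 2 such matches, that of NHLH1 held 1, that of ATOH7 held 3 and that of SSTR2 held 0. CANNTG reads the same way on both strands, and 61.8% of the 35116 RefSeq promoter windows of this length held it. CAGCTG, also its own reverse complement and 1 form of CANNTG, stood in the NEUROD4 window and in 14.0% of all windows. CAGATG, searched on both strands, stood in the windows of NHLH1 and ATOH7 and in 12.2% of all. These matches describe the letters only.

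D22 held 9824 barcodes and 131583840 UMIs, of which 97.1% of barcodes were kept with at least 1500 UMIs, at least 1000 genes and under 20% mitochondrial UMIs. Median depth of the kept cells was 12183 UMIs for D22, against 7180.5 for D24 and 8486 for D26. Members had a median of 12215 UMIs on 3396 genes, and other non-dividing cells 11409 UMIs on 3223 genes. The median mitochondrial share was 3.40% and 3.22%. A Scrublet doublet score of 0.25 or more was given to 2.65% of members, 2.31% of other non-dividing cells and 10.2% of dividing cells. D22 shared 27 barcodes with D24, 37 with D26 and 30 with the tagged run, of which 8, 15 and 13 were members.

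Per member, the summed UMIs of NEUROD4 and NHLH1 had a lowest value of 4, a median of 7 and a highest value of 29. Both genes were detected in 2235 members (78.0%), NHLH1 alone in 479 and NEUROD4 alone in 151. MKI67 and TOP2A were both at 0 in 2548 members (88.9%). These values follow from the rule and are given as a description. The label of neuronal precursors was set against marker genes that the rule did not use, in UMIs of a gene per 1000000 UMIs summed over the group (CPM). The 5 dividing-cell markers CCNB1, UBE2C, NUSAP1, CENPF and PCNA summed to 87.2 CPM in members, 109 in other non-dividing cells and 4124 in dividing cells. Limits on MKI67 and TOP2A chose these groups and largely set these sums, so they lend the label nothing. The 5 neuron markers STMN2, DCX, TUBB3, ELAVL4 and GAP43 summed to 2304 CPM in members, 3029 in other non-dividing cells, 1718 in DLX cells, 513 in dividing cells and 11470 in the cells with TBR1 or PPP1R17 described further on. The 5 progenitor markers SOX2, HES1, HES5, VIM and NES summed to 3345 CPM in members, 4191 in other non-dividing cells, 3713 in DLX cells, 4740 in dividing cells and 935 in the TBR1 or PPP1R17 cells. Members lay between the dividing cells and the TBR1 or PPP1R17 cells on both lists, and so did the other non-dividing cells and the DLX cells. VIM made up 3042 CPM of the progenitor sum in members and STMN2 1470 CPM of the neuron sum, so each sum rests mainly on 1 gene. The other non-dividing cells include the DLX cells and the TBR1 or PPP1R17 cells. Of 10 markers of other lineages, 9 had UMIs in members and SOX10 was at 0, with a sum of 14.0 CPM in members and 21.8 in other non-dividing cells. The 5 multiciliated markers summed to 27.1 and 13.4 CPM. The 5 DLX lineage markers summed to 34.0 and 108, beside a rule that leaves out cells with DLX UMIs. The 5 glutamatergic markers summed to 118 and 200, and the 5 IRX class markers to 157 and 139. CRABP1 made up 142 and 98.7 CPM of the last sum, and the other 4 were each lower in members, with IRX2, the highest of them, at 9.95 and 23.2 CPM. Their part in the ratios given here was not tested, apart from the values without IRX cells and without DLX cells stated beside a gene.

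Among the marker genes of these cells outside the rule, SSTR2 (chr17:73165010-73176633) stood farthest apart. It was at 260 CPM in members (255 to 265) and at 67.9 in other non-dividing cells (65.5 to 70.2), a log2 ratio of 1.94 (1.88 to 2.00). HES6 (chr2:238238267-238240662) was at 2018 CPM in members (2004 to 2033) and 1181 in the others (1171 to 1191), a log2 ratio of 0.77 (0.76 to 0.79). LHX9 (chr1:197911902-197935478) was at 232 CPM in members (228 to 237) and 114 in the others (111 to 117), a log2 ratio of 1.03 (0.98 to 1.08). All 3 were thus higher in members.

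After every cell was thinned to 1500 UMIs, which left out 0 cells, SSTR2 was detected in 29.2% of members (27.6 to 30.9) and in 8.22% of other non-dividing cells (7.39 to 9.12). Unthinned, it was detected in 72.3% and 25.3%. In cells with at least 3 UMIs of DLX1, DLX2 and DLX5, SSTR2 was detected in 8 of 521 thinned cells, at a median depth of 11622 UMIs before thinning, against which the share in members can be read. For LHX9 the thinned shares were 29.7% in members and 15.3% in the others, with 12 of the 521 DLX cells. HES6 was detected in 86.7% of thinned members, 61.5% of the others and 57.2% of the DLX cells, so HES6 was present in most cells of each of these groups.

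The limit of 4 UMIs cut through a gradual series, as the plot of levels by rule UMIs shows. Among non-dividing cells without DLX UMIs, the 546 cells just outside the limit, with 3 UMIs, had 183 CPM of SSTR2, and the 498 cells just inside, with 4 UMIs, had 213 CPM. HES6 was at 1918 CPM just outside and 1928 CPM just inside. SFRP2, an extracellular Wnt antagonist, was at 25.4 and 10.8 CPM. The 1483 cells without a UMI of either gene stood well apart, with 16.6 CPM of SSTR2, 770 CPM of HES6 and 254 CPM of SFRP2. The 632 members with 10 or more UMIs had 314 CPM of SSTR2, and their median depth of 13850 UMIs was above the 11449.5 UMIs of members with 4.

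**Figure D1:**
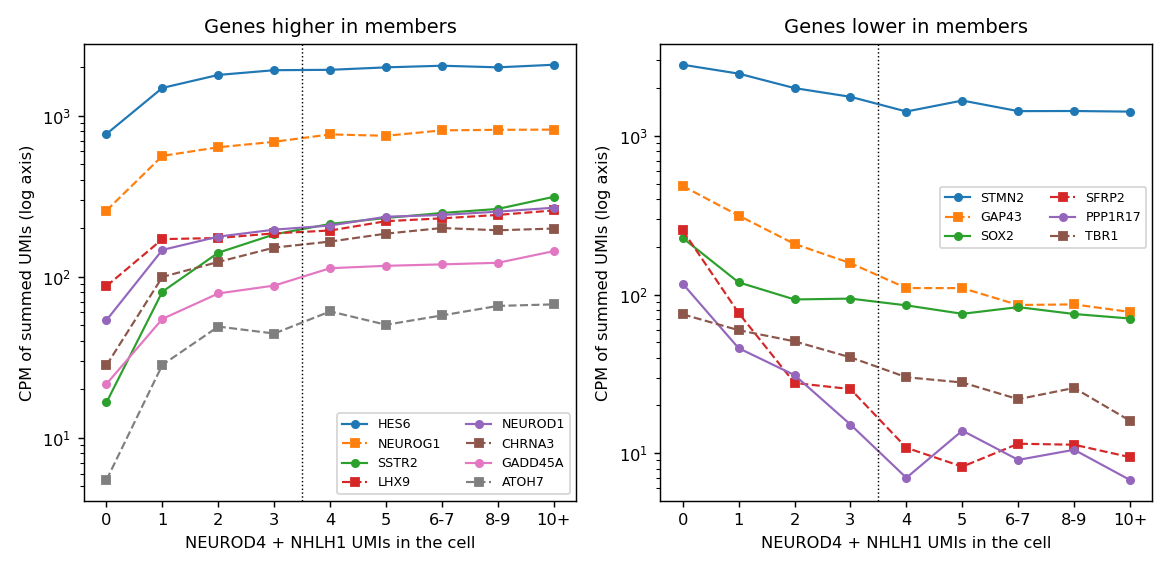
Levels (CPM of summed UMIs, log axis) of genes higher (left) and lower (right) in members, in non-dividing D22 cells without DLX UMIs, by the number of NEUROD4 and NHLH1 UMIs in the cell. The dotted line is the limit of 4 UMIs; SSTR2 goes from 16.6 CPM at 0 UMIs to 314 CPM at 10 or more, and SFRP2 from 254 to 9.44.

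Of 5575 genes with at least 20 CPM in members or in other non-dividing cells, 64 (1.15%) were at least 2-fold higher in members and 79 (1.42%) at least 2-fold lower. The rule genes NEUROD4, NHLH1, DLX1, DLX2 and DLX5 are among these, the rule chose the cells on this contrast, and so the counts describe the members and test nothing. The median log2 ratio of all genes compared was 0.01. With the rule genes left out, the 15 genes highest in members by ratio, at 50 CPM or more, ran from SSTR2 at 1.94 to NEUROD1 at 1.31. The 10 lowest ran from SFRP2 at -3.58 to ANK3 at -1.62. Among the latter were ATP2B4, a plasma membrane calcium pump gene, at 8.43 CPM in members and 60.3 in the others, and PLS3, an actin-bundling protein gene, at 10.2 and 72.0. The others include the 521 DLX cells, where ATP2B4 was at 222 and PLS3 at 284 CPM, and the rule leaves out cells with DLX UMIs. PCSK1N, which encodes an inhibitor of prohormone processing, was at 50.3 and 167 CPM, ZFP36L1 at 42.0 and 132, and ANK3, an axon initial segment gene, at 22.02 and 67.7.

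**Figure D2:**
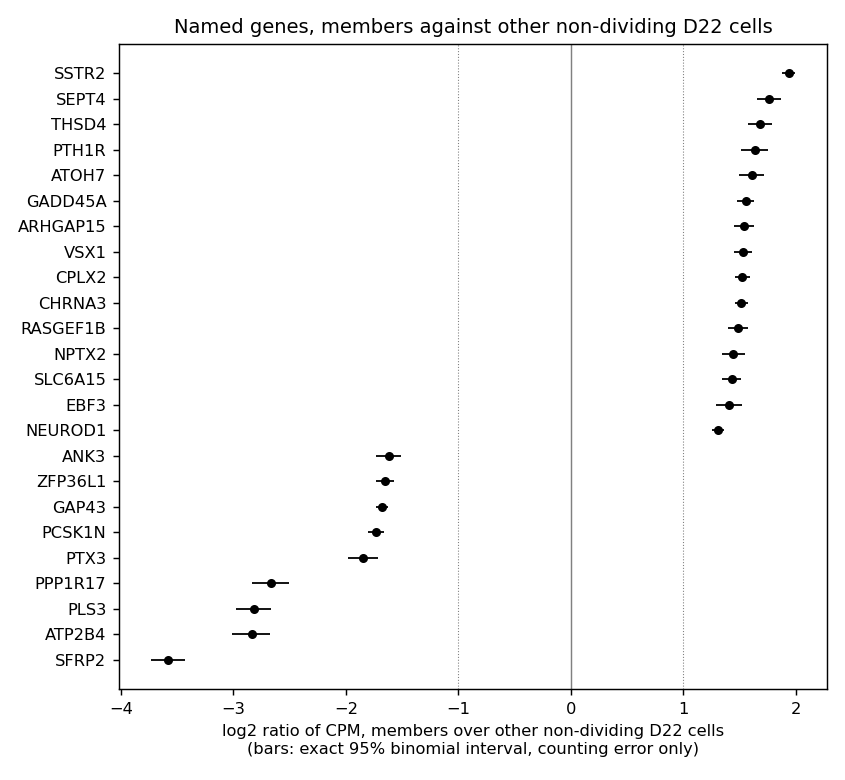
Log2 ratio of CPM, members over other non-dividing D22 cells, for the 15 highest and 9 of the 10 lowest genes outside the rule with at least 50 CPM in either group; points are ratios and bars exact 95% binomial intervals covering counting error only. SSTR2 stands at 1.94 and SFRP2 at -3.58, and dotted lines mark 2-fold.

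Of the proneural and neuronal bHLH genes outside the rule, 8 of 16 listed were compared, 4 were at least 2-fold higher in members and 1 at least 2-fold lower, with a median log2 ratio of 0.66. NEUROG1, a proneural factor of the sensory and dorsal lineages, was at 798 CPM in members and 387 in the others, a log2 ratio of 1.05 (1.02 to 1.07). Thinned to 1500 UMIs, it was detected in 66.4% of members and 36.3% of the others, and unthinned in 98.4% and 67.3%. NEUROD1 was at 244 and 98.7 CPM (log2 ratio 1.31, 1.26 to 1.36), and went under 2-fold (0.97) after thinning to 6000 UMIs. ATOH7, known for retinal ganglion cell formation, was at 60.9 and 19.97 CPM, with 1.61 (1.499 to 1.72), and NEUROG2 was at 28.8 and 13.8 CPM. When other cells with DLX UMIs were left out, NEUROG1 and NEUROG2 went under 2-fold (0.82 and 0.81), as did CHRNA5 (0.87). After thinning to 6000 UMIs NEUROG1 was at 0.78 and NEUROG2 at 0.64. The rule was applied again to the thinned cells, which left 1364 members of 9342 cells. Former members that no longer reached 4 rule UMIs then stood among the others. Ratios after this thinning, here and below, thus join lower depth with changed groups, and the 2 were not told apart.

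The 3 EBF genes, whose factors drive migration and differentiation of newborn neurons, were each at least 2-fold higher in members. EBF1 was at 57.5 and 23.4 CPM, EBF2 at 44.6 and 14.2, and EBF3 at 51.3 and 19.3. After thinning to 6000 UMIs EBF1 went under 2-fold (0.96). They were the only pan-neuronal transcription factors of 12 compared to pass 2-fold in either direction, and the list had a median of 0.21. VSX1, a homeobox gene known from retinal bipolar cells, was at 111 and 38.4 CPM (log2 ratio 1.53, and 0.93 after thinning). GADD45A, a growth arrest and DNA damage response gene, was at 125 and 42.5 CPM (log2 ratio 1.56).

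CHRNA3 (chr15:78593052-78621295), the α3 subunit of nicotinic acetylcholine receptors, was at 191 CPM in members and 66.9 in the others, with a log2 ratio of 1.52 (1.46 to 1.58). Its neighbours CHRNA5 (chr15:78565520-78595269) and CHRNB4 (chr15:78624111-78727754), singled out after their values were seen, encode the α5 and β4 subunits. CHRNA5 was at 71.5 and 35.6 CPM (1.00, 0.92 to 1.09) and CHRNB4 at 32.5 and 13.3 CPM (1.29, 1.15 to 1.43). All 3 genes of this cluster were thus at least 2-fold higher in members, CHRNA5 just at that limit. After thinning to 6000 UMIs, with the rule applied again, all 3 were higher by less than 2-fold (0.999, 0.75 and 0.97 for CHRNA3, CHRNA5 and CHRNB4). CHRNA3 and CHRNA5 lie on opposite strands and overlap at their ends, and the strand setting of the count is not given in the sources used here, so some of their UMIs could be shared. CPLX2, which regulates vesicle fusion, was at 168 and 58.3 CPM, NPTX2, a secreted synaptic pentraxin, at 65.7 and 24.2, and the amino acid transporter gene SLC6A15 at 91.7 and 34.0 (under 2-fold, 0.96, after thinning). PTH1R, the parathyroid hormone receptor, was at 53.2 and 17.1 CPM. The other high genes were SEPT4 at 72.2 and 21.3 CPM, THSD4 at 67.1 and 20.9, ARHGAP15 at 95.1 and 32.7 and RASGEF1B at 89.0 and 31.7.

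Some progenitor genes were lower in members. Of 20 listed, 14 were compared, 0 were at least 2-fold higher and 5 at least 2-fold lower (SOX2, SOX3, SOX21, FABP7 and ID4), with a median log2 ratio of -0.45. SOX2, the pluripotency and neural progenitor factor, was at 77.9 CPM in members (75.1 to 80.8) and 195 in the others (191 to 199), a log2 ratio of -1.32 (-1.38 to -1.26). Thinned to 1500 UMIs, SOX2 was detected in 11.1% of members, 20.2% of the others, 42.5% of dividing cells and 0.911% of the TBR1 or PPP1R17 cells. Unthinned, these shares were 50.9%, 61.4%, 94.2% and 9.11%. VIM was at 3042 CPM in members and 3703 in the others, less than 2-fold apart.

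Of 11 Notch pathway genes compared, 0 passed 2-fold in either direction, with a median of 0.05. The ligand genes were DLL3, at 546 CPM in members and 554 in the others, and DLL1, at 178 and 280. MFNG, which modifies Notch receptors, was at 122 and 64.0 CPM (log2 ratio 0.93). HES5, a direct Notch target, was at 20.4 and 33.5 CPM. Of 9 cell cycle exit genes, 0 passed 2-fold as well. Over all 5575 genes compared, 1.15% were at least 2-fold higher and 1.42% lower, and counts of 0 on short lists lie near those shares. The cyclin-dependent kinase inhibitor gene CDKN1C was at 1856 CPM in members and 1813 in the others, a log2 ratio of 0.03, whereas the cyclin gene CCND1 was at 177 and 91.4 CPM (log2 ratio 0.95, 0.90 to 1.01).

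Several genes of the neuronal cytoskeleton were also lower in CPM. All 20 listed were compared, 0 were at least 2-fold higher and 6 at least 2-fold lower (STMN4, TUBB2A, MAPT, GAP43, NEFL and NEFM), with a median of -0.46. GAP43, a growth cone protein gene, was at 91.6 CPM in members and 293 in the others, a log2 ratio of -1.68. STMN2 was at 1470 and 2100 CPM (log2 ratio -0.51), while DCX, a microtubule protein gene of migrating neurons, was at 543 and 499 CPM (log2 ratio 0.12). STMN2 was detected in more members (64.1%) than others (48.6%) after thinning to 1500 UMIs, and unthinned in 87.0% and 70.3%. GAP43 was detected in 10.5% and 20.4% thinned, and in 41.6% and 38.5% unthinned. The others include the 549 TBR1 or PPP1R17 cells, where STMN2 was at 8584 CPM. The part of those cells in the cytoskeletal ratios was not tested, so these ratios give no direction outside them. The neuronal RNA-binding genes ELAVL3 and ELAVL4 were higher in members, at 427 against 247 CPM and 166 against 105 CPM, though less than 2-fold. NSG1 was the 1 gene of 11 on that list to pass 2-fold, and it was lower. It encodes an endosomal protein of neurons and does not bind RNA.

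Of 12 glutamatergic lineage genes compared, 2 were at least 2-fold higher (LHX9 and EOMES) and 4 at least 2-fold lower (TBR1, PPP1R17, SLC17A6 and SAMD3), with a median of -0.60. EOMES, the marker of intermediate progenitors in the cortex, was at 94.4 CPM in members and 42.5 in the others, a log2 ratio of 1.15. TBR1, which follows EOMES in cortical neurogenesis, was at 23.3 and 49.7 CPM (-1.09). PPP1R17, an inhibitor of protein phosphatases, was at 9.13 and 57.9 CPM (-2.67), and SLC17A6, the vesicular glutamate transporter gene, was at 6.78 and 21.8 CPM. The others include the 549 cells chosen further on by their TBR1 and PPP1R17 UMIs, where PPP1R17 was at 373 CPM. The part of those cells in these ratios was not tested, so no direction is given for PPP1R17 and TBR1 outside them. LHX9 and EOMES went under 2-fold after thinning to 6000 UMIs (0.83 and 0.90), with at least 6 rule UMIs (0.88 and 0.96) and against other cells without DLX UMIs (0.79 and 0.90).

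Most forebrain genes were less than 2-fold apart. Of 13 compared, 0 were at least 2-fold higher and 1, NR2F1, was lower, with a median of 0.23. Ratio intervals lay above 0 for 10 of them and below 0 for 2. These intervals cover counting error only and left out 0 for most genes of other lists too. Of 12 pan-neuronal factors 8 lay above 0 and 4 below, and of 20 cytoskeletal genes 3 lay above and 16 below. The share over all genes is not given here, so the 10 and 2 give this list no direction. EMX2, a dorsal telencephalic factor, was at 369 CPM in members and 311 in the others. Thinned to 1500 UMIs, it was detected in 40.7% of members and 35.2% of the others, and unthinned in 96.3% and 84.1%. LHX2, a LIM-homeodomain factor of the forebrain, was at 253 and 245 CPM. Of 5 genes of the IRX class compared, 4 were at least 2-fold lower (IRX2, NR2F1, SFRP2 and PTX3). When cells with at least 2 IRX UMIs were left out of both groups, PTX3 went from -1.84 to -0.72. Of 3 DLX lineage genes compared, 2 were at least 2-fold lower, DLX6-AS1 among them, and these values stand beside a rule that leaves out cells with DLX UMIs. Among 13 guidance and migration genes 0 were at least 2-fold higher and NRP2 was lower, and among 10 genes of apical delamination 0 passed 2-fold. The lists of S phase genes (6 compared), G2/M genes (5), p53 targets (5) and low oxygen genes (5) had 0 genes past 2-fold. Over all 5575 genes compared, 1.15% were at least 2-fold higher and 1.42% at least 2-fold lower. Counts of 0 or 1 on lists this short lie near those shares and set no list apart. SSTR2 was the 1 gene of the somatostatin system that reached 20 CPM, GAP43 was the 1 lower gene of 3 placode and olfactory genes, and 0 genes of the multiciliated and other cell type lists reached 20 CPM.

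Members were then set beside 3 other groups of D22 cells, in the map of levels in 4 groups. Against the 2181 dividing cells (MKI67 and TOP2A UMIs of at least 4), 4.97% of genes were at least 2-fold higher in members and 9.16% lower. The 18 G2/M genes were all at least 2-fold lower in members, and MKI67 and TOP2A are in the rule. Of 19 cytoskeletal genes 12 were at least 2-fold higher in members and 0 lower, and STMN2 was at 1470 CPM in members and 276 in dividing cells. Among genes outside the rule at 50 CPM or more in either group, EOMES was the highest by ratio, at 94.4 CPM against 9.38, a log2 ratio of 3.33. THSD4, KLHL35, RSPO3 and ELAVL4 followed with log2 ratios of 3.18, 3.05, 2.98 and 2.98. DLL1 was lower in members, with 178 against 372 CPM.

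Against the 521 DLX cells, 3.87% of genes were at least 2-fold higher in members and 2.39% lower. Of 8 bHLH genes 4 were higher (NEUROG1, NEUROG2, NEUROD1 and ATOH7) and 1 was lower. NEUROG1 was at 798 CPM in members and 87.4 in the DLX cells, and CHRNA3 was at 191 and 11.7 CPM. Of 19 cytoskeletal genes 0 passed 2-fold in either direction, with STMN2 at 1470 and 992 CPM. SOX2 was lower in members, with 77.9 against 304 CPM, and so was DLL3, with 546 against 1063 CPM, although by less than 2-fold for DLL3.

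Against the 549 TBR1 or PPP1R17 cells (UMIs of both summing to at least 3, no DLX UMIs, not members), 5.47% of genes were at least 2-fold higher in members and 11.5% lower, around a median log2 ratio of -0.10. Of 20 cytoskeletal genes 15 were at least 2-fold lower in members and 0 higher, with STMN2 at 1470 CPM against 8584 and GAP43 at 91.6 against 1441. Of 12 Notch pathway genes 8 were at least 2-fold higher in members and 1, HES4, at least 2-fold lower. Among the higher were DLL1 at 178 CPM against 19.5 and HES6 at 2018 against 167. VSX1 was at 111 and 3.18 CPM and CCND1 at 177 and 14.4 CPM. LHX9 differed little between the groups, with 232 CPM in members and 215 in these cells. TBR1 and PPP1R17 chose this group, and their levels in it are no result. Of the members themselves, 173 (6.04%) also met the limit on TBR1 and PPP1R17. The ribosomal share of UMIs was 25.8% in members and 17.9% in the TBR1 or PPP1R17 cells, and its part in these ratios was not tested.

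**Figure D3:**
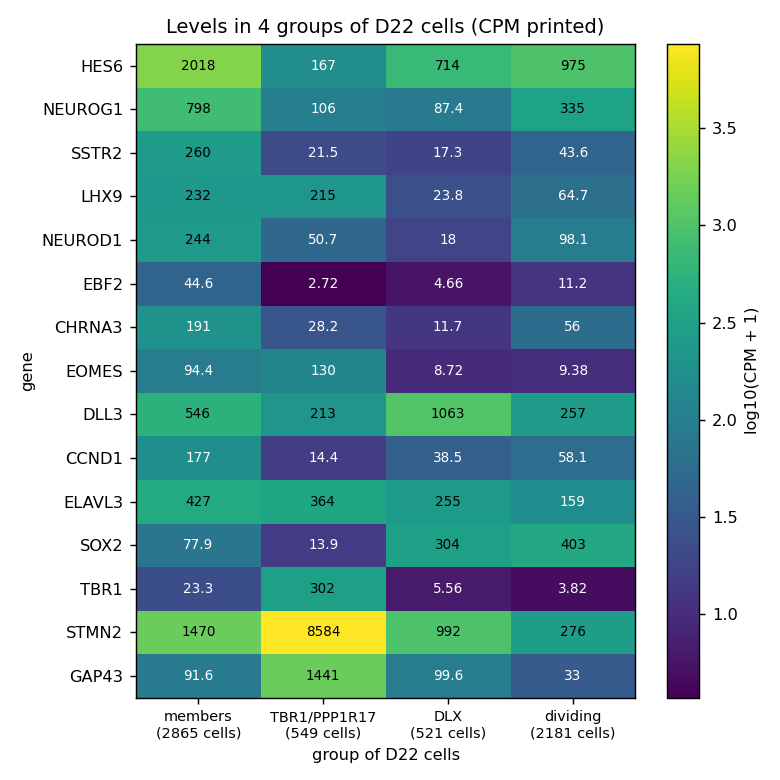
Levels (CPM printed, colour log10 of CPM + 1) of 15 genes in members and 3 other groups of D22 cells. HES6, NEUROG1, SSTR2 and NEUROD1 are highest in members, STMN2 and GAP43 in TBR1 or PPP1R17 cells, and DLL3 in DLX cells; TBR1 is in the limit that defines its own group.

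The members varied among themselves along the balance of both rule genes. NEUROD4 had more UMIs than NHLH1 in 1099 members (38.4%), NHLH1 had more in 1501 (52.4%), and 265 (9.25%) were even. The rule used only their sum. Of 5540 genes compared, 7 (0.126%) were at least 2-fold higher in NEUROD4-led members and 48 (0.866%) at least 2-fold lower, with NEUROD4 and NHLH1 among them by construction. Median depth was close, with 12421 UMIs in NEUROD4-led and 12061 in NHLH1-led members.

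Of 11 Notch pathway genes, 2 were at least 2-fold higher in NEUROD4-led members and 0 lower. DLL1 was at 260 CPM in NEUROD4-led and 107 in NHLH1-led members, a log2 ratio of 1.28 (1.198 to 1.35), and HES5 was at 29.3 and 11.3 CPM (1.37, 1.13 to 1.61). ZFP36L1, an RNA-binding protein that promotes mRNA decay, was at 68.4 and 21.6 CPM. ZDHHC14, a palmitoyltransferase gene, stood at a log2 ratio of 1.02, IGFBP5 at 0.93 and PLXNA2 at 0.85. SOX2 was at 95.1 and 61.5 CPM (log2 ratio 0.63), and HES6 at 2447 and 1654 CPM (log2 ratio 0.57).

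Of 9 glutamatergic lineage genes, 3 were at least 2-fold lower in NEUROD4-led members (TBR1, EOMES and RELN) and 0 higher. KLHL35 was at 23.1 CPM in NEUROD4-led and 112 in NHLH1-led members, a log2 ratio of -2.28 (-2.45 to -2.11). EOMES was at 36.1 and 146 CPM (-2.02, -2.16 to -1.88), and TBR1 at 3.79 and 40.7 CPM (-3.43, -3.85 to -3.03). RSPO3, a secreted Wnt enhancer, was at 90.7 and 323 CPM, and the neurofilament gene NEFM at 44.2 and 135. Of 19 cytoskeletal genes, 6 were at least 2-fold lower in NEUROD4-led members and 0 higher, with STMN2 at 774 and 2085 CPM. The 173 members that also met the limit on TBR1 and PPP1R17 stayed in this split, and their part in its ratios was not tested. SSTR2 and NEUROG1 did not follow this axis: SSTR2 was at 265 and 257 CPM (0.05, -0.02 to 0.11) and NEUROG1 at 775 and 810 CPM (-0.06).

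A split by SOX2 gave the same direction for most of these genes, HES6 (-0.02) and SSTR2 apart, and, unthinned, smaller differences for most, ZFP36L1 apart. The 711 members with at least 2 SOX2 UMIs were set against the 1406 with none, and their median depths were 13227 and 11855 UMIs. Of 5528 genes, 4 (0.0724%) were at least 2-fold higher in the SOX2-positive members, SOX2 included, and 10 (0.181%) at least 2-fold lower. After thinning to 6000 UMIs these counts were 41 and 62. EOMES was at 55.7 CPM in SOX2-positive and 128 in SOX2-free members (-1.201), and KLHL35 at 44.02 and 93.3 (-1.08). RSPO3 stood at -0.87 and the neurofilament genes NEFM and NEFL at -0.79 and -0.77. On the other side ZFP36L1 was at 80.2 and 22.9 CPM (1.81) and DLL1 at 232 and 141 CPM (0.72). IGFBP5 stood at 0.91, ID4, an inhibitor of bHLH factors, at 0.70 and PCP4, a calmodulin-binding protein gene, at 0.69. SSTR2 was lower in the SOX2-positive members (-0.46), unlike in the split by leading gene.

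**Figure D4:**
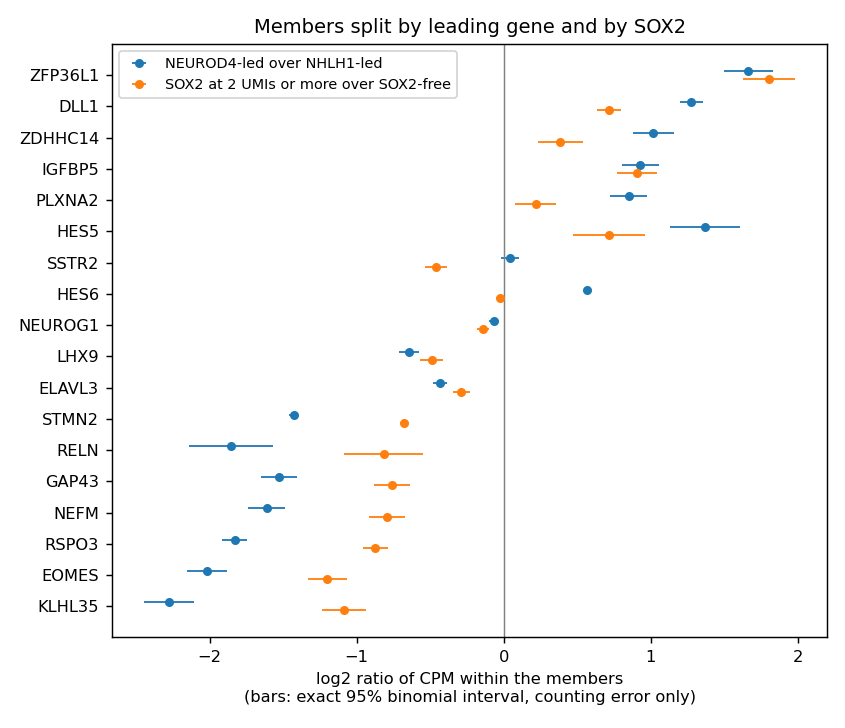
Log2 ratio of CPM within the members for 18 genes, NEUROD4-led over NHLH1-led (blue) and SOX2-positive over SOX2-free (orange), with exact 95% binomial intervals covering counting error only. DLL1 and HES5 lie right of 0 and EOMES and KLHL35 left of 0 in both splits, while SSTR2 lies at 0.05 in the first and -0.46 in the second.

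Far fewer cells passed the same rule on later days. It was met by 111 of 9110 cells at D24 (1.22%; 1.00 to 1.47) and by 20 of 11060 at D26 (0.181%; 0.110 to 0.279). Since the rule counts UMIs and D24 and D26 were shallower, cells were also thinned to 6000 UMIs, and cells below that depth were left out. The shares were then 14.6% of 9342 cells at D22, 0.702% of 6693 at D24 and 0.0982% of 9161 at D26. Over all cells kept, NEUROD4 was at 103 CPM at D22, 4.43 at D24 and 0.783 at D26, and NHLH1 at 125, 26.7 and 2.78 CPM. SSTR2 was at 117, 5.61 and 3.05 CPM over the same cells, whereas LHX9 was at 133, 169 and 110 CPM. HES6 was at 1385, 47.7 and 55.1 CPM and NEUROG1 at 496, 46.4 and 1.37 CPM. SSTR2, HES6 and NEUROG1 were thus highest in the D22 library, as the rule genes were, and LHX9 was not. In the tagged run, 54 of 11718 cells met the rule, with 0 at D0, 1 at D5 and 12 at D10 without XAV939, and 0 at D5 and 41 at D10 with it. These cells were deeper than those of D22, with medians of 25007 to 63839 UMIs, and the rule was not thinned there. NEUROD4 and NHLH1 together were at 5.06 CPM at D10 without XAV939 and 17.9 CPM with it. With 1 library a day, the day and the library cannot be told apart.

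The D24 cells of the rule (median 8494 UMIs) were set against the 8940 other non-dividing D24 cells (median 7162.5 UMIs). D24 had no part in choosing the D22 members, but the same genes chose its cells. Of 5608 genes, 3.94% were at least 2-fold higher in the D24 rule cells and 4.39% lower. SSTR2 was at 57.6 CPM in the rule cells (43.8 to 74.2) and 4.80 in the others (4.30 to 5.35), a log2 ratio of 3.58 (3.16 to 3.99). HES6 was at 279 and 38.0 CPM (2.88, 2.70 to 3.05) and NEUROG1 at 218 and 43.1 CPM (2.34, 2.13 to 2.53). CHRNA3 was at 59.5 and 5.21 CPM and EBF2 at 93.7 and 5.26 CPM. LHX9 was at 176 CPM in the rule cells and 170 in the others, a log2 ratio of 0.05 (-0.17 to 0.26), over all rule cells. Within the rule cells LHX9 was at 34.2 CPM in the 27 with at least 2 IRX UMIs and 225 in the rest, against 173 CPM in other non-dividing D24 cells below that limit. In the same 3 sets of cells HES6 was at 600, 168 and 34.7 CPM, SSTR2 at 94.9, 44.6 and 4.12, and NEUROG1 at 194, 226 and 42.3. The direction for LHX9 at D24 depended on the choice, with a log2 ratio of 0.37 without IRX cells and -0.59 after thinning to 6000 UMIs.

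Of the 62 genes outside the rule that were at least 2-fold higher in D22 members, 33 reached 20 CPM at D24, of which 22 were at least 2-fold higher there too, 10 were within 2-fold and 1 was at least 2-fold lower. Of the 76 that were lower at D22, 63 were compared at D24, of which 25 were at least 2-fold lower, 30 within 2-fold and 8 at least 2-fold higher. A gene low in the other D24 cells passed the 20 CPM limit only if it was high in the rule cells, and the reverse, so these counts are partly set by the limit and support nothing. The progenitor genes SOX2, SOX3 and SOX21 were among those 8. SOX2 was at 78.1 CPM in the D24 rule cells and 14.0 in the other D24 cells (2.48), after a log2 ratio of -1.32 at D22.

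**Figure D5:**
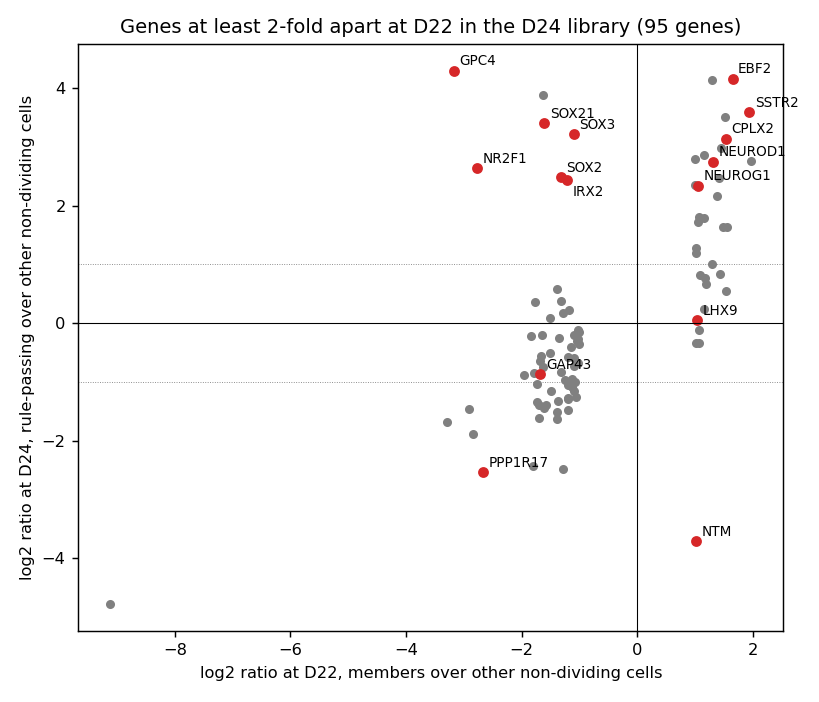
Log2 ratio at D22 (members over other non-dividing cells) against log2 ratio at D24 (cells of the same rule over other non-dividing cells) for 95 of the genes outside the rule that were at least 2-fold apart at D22 and compared at D24. SSTR2 (1.94 and 3.58) lies in the upper right, GPC4 (-3.18 and 4.29) and SOX2 (-1.32 and 2.48) in the upper left, NTM (1.02 and -3.71) at the lower right, and DLX6-AS1 far left at -9.11.

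The cells of the rule were not of the same makeup on the 3 days. CRABP1, a retinoic acid binding protein gene that marks the IRX class, was at 142 CPM in the D22 members, 2499 in the D24 rule cells and 4478 in the D26 rule cells, against 98.7, 99.4 and 58.0 CPM in the other non-dividing cells of each day. At least 2 UMIs of IRX1, IRX2, IRX3 and IRX5 were held by 86 of 2865 members (3.00%), by 27 of 111 rule cells at D24 (24.3%; 16.7 to 33.4) and by 17 of 20 at D26 (85.0%; 62.1 to 96.8). Among other non-dividing cells these shares were 7.42%, 2.40% and 2.01%. Without the IRX cells, CRABP1 was still at 1882 CPM in the D24 rule cells. OLIG3, a bHLH gene of dorsal hindbrain and spinal progenitors, was at 51.7 CPM in the D24 rule cells and 1.11 in the other D24 cells, and SHOX2 at 50.7 and 1.46 CPM.

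The 86 IRX-bearing members of D22 differed from the rest in further genes of that class. They held 31.5% of the members' CRABP1 UMIs, at 1372 CPM against 101 in the other members. NR2F1, a nuclear receptor gene, was at 142 CPM in them and 2.04 in the other members, and LHX9 at 126 and 236 CPM. SSTR2 was at 193 and 262 CPM and HES6 at 1880 and 2023 CPM.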

How the data were processed

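UMI counts per gene and cell were used as deposited by the authors, who made them with Cell Ranger on GRCh38 (version 3.1 in the submitters' processing notes; 3.1.0 in the file headers of D22, D24 and D26 and 6.1.2 in those of the tagged run) from 10× 3′ libraries. The annotation and the strand setting are not given in the sources used here. Each of the 3 days was 1 library. The 33538 genes were matched by Ensembl ID.

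Cells with at least 1500 UMIs, at least 1000 genes and under 20% mitochondrial UMIs were kept. UMIs were summed over each group and given as CPM with exact 95% Poisson intervals, ratios with exact binomial intervals and shares with Clopper-Pearson intervals. Genes with at least 20 CPM in 1 of both groups were compared, and 2-fold was the limit for counts. No test was run, because there are no replicates. Thinning drew UMIs without replacement with a fixed seed, to 1500 UMIs per cell for detection and 6000 for the rule. Groups were kept as they were at 1500 UMIs and set again by the rule at 6000. Cells with fewer UMIs than that depth were left out. Cells were not clustered. Doublets stayed in; the automatic Scrublet threshold marked 0 cells at D24 and D26, so a score of 0.25 or more was left out as an alternative. The ratio and its intervals were tested on simulated Poisson counts of each group. These held no variation between cells, so that test covers counting error only.

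The members, the gene lists and the limits of the 3 other groups were chosen with earlier results of these data known. Named genes were those of the rule and markers, 2 to 4 examples of each list, the 15 highest and 10 lowest ratios at 50 CPM or more, and the 5 at each end of each split; other genes were named after their values were seen. Some genes that this rule names are not reported here. Gene positions came from GENCODE 44 (GRCh38) and promoter sequences from RefSeq (GRCh38.p14), where all 4 genes asked for were matched. Python 3.11.15, numpy 2.4.6, scipy 1.17.1, pandas 2.3.3, scanpy 1.11.5 and matplotlib 3.10.9 were used.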

Additional observations from a re-analysis of the deposited data

Results flagged for a closer look

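For the 8 genes given here the ratio of rule cells over other non-dividing cells was at least 2-fold in one direction at D22 and at least 2-fold in the other at D24. The difference between the days was not tested, since each day is 1 library. SOX2 went from a log2 ratio of -1.32 at D22 to 2.48 at D24, SOX3 from -1.10 to 3.22, SOX21 from -1.61 to 3.40 and its antisense transcript SOX21-AS1 from -1.63 to 3.88. GPC4, a heparan sulfate proteoglycan gene, went from -3.18 to 4.29. NR2F1 went from -2.78 to 2.64 and IRX2 from -1.22 to 2.43. NTM, a neuronal adhesion gene, went the other way, from 1.02 to -3.71. SOX21 and SOX21-AS1 may share UMIs, since the strand setting is not given in the sources used here. In the comparison cells of D24, SOX2 was at 14.00 CPM and SOX3 at 3.88 CPM, against 195 and 42.1 CPM in those of D22. NR2F1 was at 22.1 CPM in the comparison cells of D24 and 45.4 in those of D22. NTM was at 38.2 CPM in the comparison cells of D24 and 26.6 in those of D22, and at 2.93 CPM in the rule cells of D24. In the rule cells SOX2 was at 77.9 CPM at D22 and 78.1 at D24. Without cells holding at least 2 IRX UMIs, the D24 ratios were 2.07 for SOX2, 3.40 for SOX3, 3.45 for SOX21, 4.12 for SOX21-AS1, 2.80 for GPC4, 2.47 for NR2F1, 1.59 for IRX2 and -3.30 for NTM.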

How the results depend on the processing

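No paired analysis was possible because each day is 1 library with no replicate numbers, and no replicate could be left out for the same reason. The share of members at D22 was 30.0% and became 35.8% with at least 3 rule UMIs, 19.7% with at least 6, 23.3% with 400 CPM of the cell as the limit, 14.6% after thinning to 6000 UMIs and 31.3% without IRX cells. The D24 share of 1.22% became 2.37%, 0.505%, 0.702% and 0.949% with at least 3, at least 6, thinning and no IRX cells, and the D26 share of 0.181% became 0.298%, 0.0814%, 0.0982% and 0.0277%. The 143 genes at least 2-fold apart at D22 became 76 after thinning, 309 against other cells with 0 rule UMIs, 2705 with no minimum CPM and 4 UMIs, and 73 with 10 CPM added. Against other cells without DLX UMIs 41 genes were higher and 87 lower, in place of 64 and 79, and with no minimum CPM 907 were higher and 1798 lower. The 14 genes apart in the SOX2 split became 8 with at least 6 rule UMIs and 103 after thinning. In the split by leading gene, 7 genes higher and 48 lower became 20 and 57 after thinning. Counts against the 3 other D22 groups were redone only with at least 3 rule UMIs, at least 6, and without Scrublet scores of 0.25 or more. They stayed within 1.5 times under these, and were not redone after thinning or with other CPM limits. Of 37 named genes past 2-fold, 555 ratios under 15 alternatives gave 514 still past 2-fold, 41 under 2-fold with the same sign and 0 reversed. The alternative without a minimum CPM leaves every ratio as it was, and centring on the median shifts each by 0.005. Limits of 3000 UMIs and 10% mitochondrial UMIs kept 2864 members. Most of these genes were also named for their large ratios here, so the 514 are no measure of stability. Among the 41 were VSX1 (0.93), CHRNA3 (0.999), NEUROD1 (0.97), SLC6A15 (0.96), EBF1 (0.96), NEUROG2 (0.64), NEUROG1 (0.78), LHX9 (0.83), EOMES (0.90), CHRNA5 (0.75) and CHRNB4 (0.97) after thinning. The alternatives without IRX cells, without barcodes shared with other libraries, and with thinning of the splits and of D24 and D26 were chosen after seeing the data. Outside the counting interval of the main value lay 292 of 675 ratios of 45 named genes under these alternatives. The same held for 31 of 56 ratios in the splits of members and for 19 of 50 at D24. Where a value moved, the cause was not tested. Depth limits the 111 D24 cells and above all the 20 D26 cells, in which SSTR2 had 2 UMIs.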
